A study of Homo sapiens with 12 samples.

Results

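Axon guidance ligands and receptors were followed across 4 groups of ARPE-19 libraries. The members are the protein-coding genes of the deposited count table whose symbol starts with SEMA, PLXN, EPHA, EPHB, EFNA or EFNB, together with the neuropilins NRP1 and NRP2, the netrins NTN1, NTN3, NTN4 and NTN5, the slits SLIT1 to SLIT3, and the receptors ROBO1 to ROBO4 and UNC5A to UNC5D. That rule uses names and no measured value. It found 68 genes among 40591 named lines (60605 lines in all), of which 35 are ligands and 33 are receptors. ARPE-19, a widely used human cell line, derives from retinal pigment epithelium (RPE), and poly(A) RNA of 12 libraries was sequenced, 3 per group. In the WT group the labels list no introduced open reading frame (ORF). The other groups are GFP, a stable line carrying the fluorescent protein as a control ORF, GSTA4, a line with the glutathione S-transferase GSTA4, and OSK, a line with the reprogramming factors POU5F1, SOX2 and KLF4. The design text places collection at day 4 of ORF expression, and it does not say how the WT cells were kept. The labels do not give what drives an ORF, whether a line is 1 clone, or whether libraries of a group came from separate cultures. A difference between groups therefore cannot be told apart from other differences between the lines, and p-values measure only the spread between these libraries, which may be technical.

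Axon guidance proteins were named for steering growing nerve fibres, but most are used by many tissues for adhesion, repulsion, vessel growth and the ordering of epithelia. Secreted semaphorins bind a neuropilin, which pairs with a plexin that carries the signal into the cell, while membrane semaphorins bind plexins directly. Ephrins are tethered to the cell surface and activate EPH receptor kinases on the neighbouring cell, slits bind ROBO receptors, and netrins bind DCC, neogenin and the UNC5 receptors. In the eye these families are best known for guiding retinal ganglion cell axons and mapping them in the brain, and the RPE both makes and reads several of them.

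Of the 68 members, 56 passed the filter on low counts and entered a single edgeR quasi-likelihood fit with 15179 genes in all. Adjusted p-values come from that fit over all tested genes of a contrast, with a threshold of 0.05, and a gene past it is said to have risen, fallen or been called. Levels are CPM, counts scaled to library size after TMM normalisation. Total counts ran from 12630675 to 17045454 per library, and the floor of 3 reads, the limit set by a count of 0, corresponds to 0.177 to 0.228 CPM. The ORF genes followed the labels, with GSTA4 at 396 to 431 CPM in the GSTA4 group and at most 22.5 CPM elsewhere, and POU5F1, SOX2 and KLF4 each above 622 CPM in OSK and below 2.7 CPM in the other groups. WT replicate 1 stood apart from its group: a chi-square of counts over its degrees of freedom was 13.8 and 16 against the other WT libraries, which differed from each other by 2.5. In GFP replicate 1, 27349 named genes had a read, where the other 11 libraries had 19488 to 22073. Of 15 RPE markers 12 were tested, and the defining RPE65, TTR and DCT were near 0, with at most 10 reads in a library. The RPE markers summed to 2610 to 2830 CPM in WT, 2370 to 2710 in GFP, 1760 to 1840 in GSTA4 and 1570 to 1630 in OSK. The keratin KRT8 was the largest part in every group, with means of 1247, 843, 679 and 501.5 CPM in that order. Not all markers followed the sum. In the same order SERPINF1 had 57, 151.8, 149.7 and 87.2 CPM, LRAT 1.05, 3.89, 14.3 and 1.4, and PAX6 184, 186, 191 and 175. The part of these markers in the results on members was not tested. In bulk RNA, fewer cells of a type and less RNA per cell cannot be told apart. Neuron markers summed to 152 to 218 CPM in WT, 83.4 to 106 in GFP, 92.6 to 104 in GSTA4 and 179 to 196 in OSK, most of it MAP2, and the other lists are given beside the results they touch.

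Upstream sequence is shown for 5 members and 1 noncoding gene on which the results below turn: PLXNA2, EPHB1 and NTN4, which rose in OSK, UNC5B-AS1, a noncoding gene inside UNC5B, EPHB2, which fell in both ORF lines, and EPHA7, which was called in GSTA4 alone. Each run holds the 250 bases before the transcription start in RefSeq (GRCh38.p14), 5′ to 3′ on the gene's own strand, with no annotated exon inside. The windows are chr1:208244385-208244634 (minus strand) for PLXNA2, chr3:134795010-134795259 (plus) for EPHB1, chr12:95791156-95791405 (minus) for NTN4, chr10:71218229-71218478 (minus) for UNC5B-AS1, chr1:22710589-22710838 (plus) for EPHB2 and chr6:93419560-93419809 (minus) for EPHA7. Capitals mark CACCC, the core of the box that KLF factors bind, or its other strand GGGTG, and CATTGT, a SOX core, or its other strand ACAATG. No match overlapped another, and the POU octamer ATGCAAAT, searched on both strands, was in none of the 6 windows.
PLXNA2: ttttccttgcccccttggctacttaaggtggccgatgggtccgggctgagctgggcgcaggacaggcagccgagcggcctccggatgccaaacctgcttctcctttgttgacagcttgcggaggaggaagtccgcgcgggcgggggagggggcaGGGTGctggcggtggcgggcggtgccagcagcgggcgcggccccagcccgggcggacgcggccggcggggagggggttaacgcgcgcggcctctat
EPHB1: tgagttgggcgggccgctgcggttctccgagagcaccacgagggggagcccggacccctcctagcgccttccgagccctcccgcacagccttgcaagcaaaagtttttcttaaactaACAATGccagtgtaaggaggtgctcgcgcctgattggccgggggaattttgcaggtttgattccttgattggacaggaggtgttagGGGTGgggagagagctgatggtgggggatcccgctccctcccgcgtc
NTN4: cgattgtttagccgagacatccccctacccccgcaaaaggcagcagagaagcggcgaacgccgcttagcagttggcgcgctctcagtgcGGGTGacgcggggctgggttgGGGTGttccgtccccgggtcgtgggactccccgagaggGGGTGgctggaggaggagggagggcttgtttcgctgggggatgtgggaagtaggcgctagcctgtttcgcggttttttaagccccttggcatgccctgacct
UNC5B-AS1: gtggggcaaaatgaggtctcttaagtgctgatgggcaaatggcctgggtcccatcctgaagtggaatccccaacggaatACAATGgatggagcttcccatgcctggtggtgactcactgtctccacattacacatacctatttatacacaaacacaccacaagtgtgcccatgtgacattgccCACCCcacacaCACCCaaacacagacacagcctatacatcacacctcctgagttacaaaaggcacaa
EPHB2: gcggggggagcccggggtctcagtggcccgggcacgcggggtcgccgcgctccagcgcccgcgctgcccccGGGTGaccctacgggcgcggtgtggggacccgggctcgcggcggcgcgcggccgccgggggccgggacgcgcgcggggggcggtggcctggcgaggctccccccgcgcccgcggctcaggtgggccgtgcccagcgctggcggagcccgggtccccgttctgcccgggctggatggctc
EPHA7: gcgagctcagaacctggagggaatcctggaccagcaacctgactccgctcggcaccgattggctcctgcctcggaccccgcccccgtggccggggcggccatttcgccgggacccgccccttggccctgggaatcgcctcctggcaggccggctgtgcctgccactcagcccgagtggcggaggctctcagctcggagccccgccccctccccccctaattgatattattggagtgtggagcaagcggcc

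RefSeq gave 250 bases before the start for 58 of the 68 members, and 31 of these windows held no annotated exon. The shares below use all 58, as the share over all RefSeq windows does not leave out exons either. A member has a single window, while all RefSeq windows were counted, so a gene with several starts may count more than once there. CACCC on either strand was in the window of 14 of 17 members that rose in OSK against GFP (82.4%), 12 of 20 that fell (60%) and 7 of 10 that were tested and not called (70%), while 54.7% of 35116 RefSeq windows held it. The SOX core was in 1 window of each of these sets, which is 5.88%, 5% and 10%, against 9.29% of all windows. The octamer was in 1 member that rose, SEMA3F, and in 1.63% of all windows. These are matches of letters in windows that were not matched for base composition, and they show no binding.

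Most tested members differed among the 4 groups. A difference of any kind was found in 47 of the 56 tested members (83.9%) by the F test, where 66.9% of all tested genes were called. OSK against GFP called 42 members (75%), 19 higher and 23 lower, where 45.9% of all tested genes were called, 23.1% higher and 22.8% lower. With library size alone as scaling, the share of higher genes among all calls of this contrast dropped from 50.4% to 39.8%, and the same 42 members were called, 19 higher and 23 lower. GSTA4 against GFP called 23 members (41.1%), 7 higher and 16 lower, beside 29.2% of all genes, 14.7% higher and 14.6% lower. GFP against WT called 18 members (32.1%), 9 in each direction, beside 22.2% of all genes, 11% higher and 11.2% lower. OSK against GSTA4 called 38 members (67.9%), 21 higher and 17 lower, beside 47.8% of all genes, 24.1% higher and 23.8% lower. The counts without WT replicate 1 were 43, 28, 16 and 41 in the same order, beside 48.5, 32.4, 16.2 and 49.5% of all genes. Without GFP replicate 1 they were 40, 20, 16 and 39, beside 41, 22.6, 19.1 and 48.1%.

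Called members with a log2 fold change of 1 or more in size numbered 21 in OSK against GFP (10 higher and 11 lower, background 11.6%), 7 in GSTA4 against GFP (3 higher and 4 lower, background 5.7%), 3 in GFP against WT (all higher, background 3.31%) and 22 in OSK against GSTA4 (13 higher and 9 lower, background 13.1%). The median log2 fold change of tested members was -0.22 in OSK against GFP and -0.13 in GSTA4 against GFP, where all tested genes had -0.02 and 0.01. Split by role, OSK against GFP called 9 ligands higher and 14 lower of 29, and 10 receptors higher and 9 lower of 27. Of all tested genes 23.1% were higher and 22.8% lower there. GSTA4 against GFP called 2 ligands higher and 10 lower, and 5 receptors higher and 6 lower, beside 14.7% and 14.6% of all tested genes. Both ORF contrasts use the same GFP libraries, so a member high or low there by chance would appear in both. Side by side, 4 members (7.14%) were higher in both ORF lines than in GFP (NRP1, SEMA6D, EPHA5, ROBO1), where 5.26% of all tested genes were. Another 9 members (16.1%) were lower in both, beside 6.47% of all genes, and 8 (14.3%) were called in opposite directions, beside 6.19%. OSK alone called 21 (37.5%, beside 27.9%), GSTA4 alone called 2, EPHA7 and PLXND1 (3.57%, beside 11.3%), and 12 were called in neither (21.4%, beside 42.8%).

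**Figure D1:**
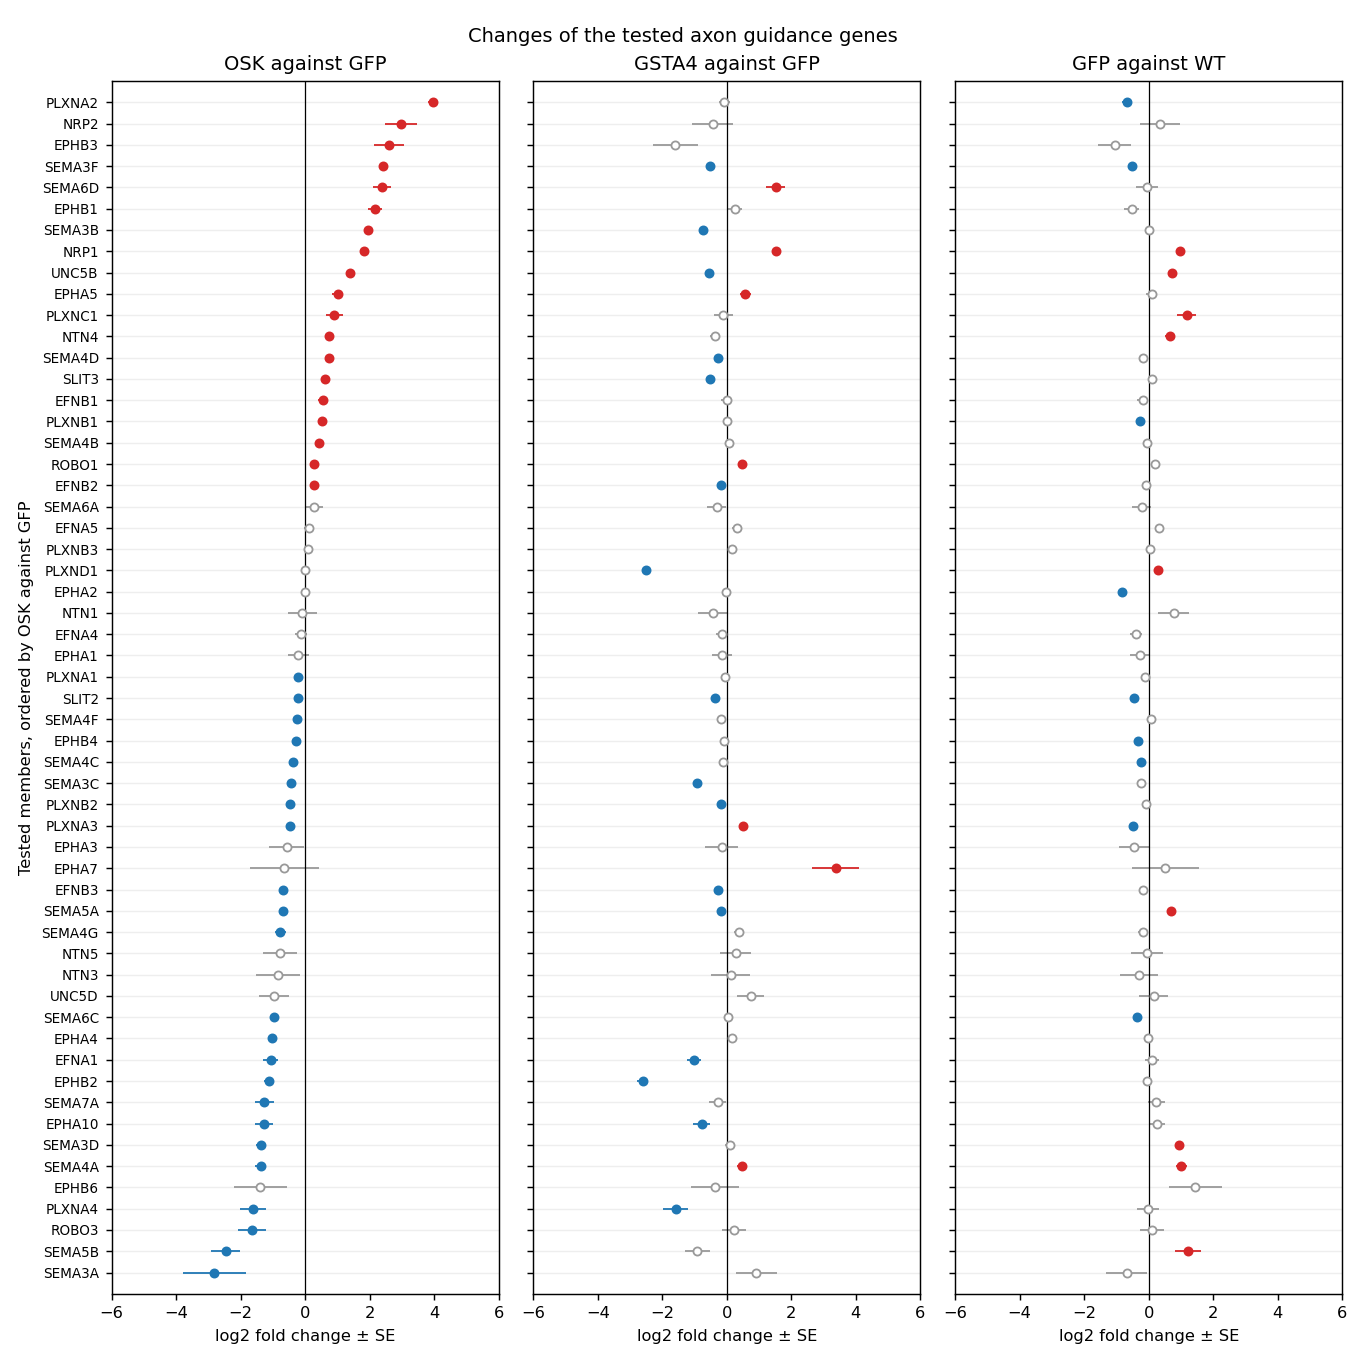
Log2 fold change ± SE of the 56 tested members (x axes) in OSK against GFP, GSTA4 against GFP and GFP against WT, with members ordered by the first contrast (y axis); red marks higher, blue lower and open grey points not past the threshold. OSK moved members both ways, from PLXNA2 at 3.95 to SEMA3A at -2.81, and in GSTA4 against GFP only 3 rises and 4 falls among the called members were 1 or more in size.

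Secreted semaphorins split in OSK. SEMA3B and SEMA3F, which repel axons and act through neuropilins, rose, and SEMA3A, SEMA3C and SEMA3D fell. In GSTA4 against GFP 3 of the 5 tested members of this class fell, SEMA3B, SEMA3C and SEMA3F, and none rose. Of all tested genes 14.6% fell in that contrast and 14.7% rose. SEMA3B had 441, 496 and 478 CPM in WT, 433, 484 and 522 in GFP, 310, 288 and 264 in GSTA4, and 1840, 1904 and 1820 in OSK. Every OSK library was more than 3 times as high as any GFP library, and every GSTA4 library lay below all WT and GFP libraries. Against GFP, SEMA3B rose by 1.95 on the log2 scale in OSK (SE 0.0749, adjusted p 1.88e-14) and fell by 0.74 in GSTA4 (SE 0.0736, adjusted p 1.44e-07). SEMA3F had fewer reads, at 15.1, 13.5 and 11.9 CPM in WT, 8.59, 9.1 and 10.3 in GFP, 7.12, 6 and 6.33 in GSTA4 and 50.8, 47.4 and 53.5 in OSK. None of the 4 groups overlapped. SEMA3F rose by 2.43 in OSK against GFP (SE 0.111, adjusted p 3e-13), fell by 0.52 in GSTA4 against GFP (SE 0.132, adjusted p 0.00476) and fell by 0.52 in GFP against WT (SE 0.119, adjusted p 0.00363).

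SEMA3F and SEMA3B are neighbours on chromosome 3 in GENCODE 29 (GRCh38), at chr3:50155045-50189075 and chr3:50267558-50277546, both on the plus strand. Of the protein-coding genes between them, GNAI2, an inhibitory G protein subunit, rose in OSK against GFP by 0.86 (SE 0.062, adjusted p 4.1e-10) from 221 CPM ± 15.1 to 402 ± 12.6 (SD, n = 3). In GSTA4 against GFP GNAI2 rose by 0.27 (SE 0.062, adjusted p 0.00237), where both semaphorins fell, and against WT it gave 0.05 (adjusted p 0.557). SLC38A3, an amino acid transporter, had 1.04 CPM in GFP and 0.413 in OSK and was not called (log2 fold change -1.32, adjusted p 0.0576), and GNAT1 had 1 read in all libraries together.

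The other secreted semaphorins went down in OSK. SEMA3D had 10.8, 18 and 18.1 CPM in WT, 30.2, 30.2 and 30 in GFP, 28.3, 31.6 and 36.1 in GSTA4 and 11.1, 12.6 and 11.3 in OSK. GFP and GSTA4 overlapped at the higher level. OSK lay within the WT range only through WT replicate 1, and SEMA3D was called lower in OSK than in WT (log2 fold change -0.41, SE 0.154, adjusted p 0.0326). Relative to GFP, SEMA3D fell by 1.36 in OSK (SE 0.147, adjusted p 1.77e-07) and was 0.95 higher in GFP than in WT (SE 0.142, adjusted p 8.17e-05). SEMA3C fell from 208 CPM ± 7.89 in GFP to 110.3 ± 10.1 in GSTA4 and 153.5 ± 17.8 in OSK. Its log2 fold changes were -0.91 (SE 0.0919, adjusted p 1.71e-07) and -0.44 (SE 0.0906, adjusted p 0.000492). SEMA3A, the best known repellent of the class, had 5, 22 and 12 reads in WT, 12, 4 and 6 in GFP, 18, 13 and 13 in GSTA4 and 0, 0 and 3 in OSK. With 22 reads in GFP and 3 in OSK, the ratio of GFP to OSK was 7.72 (exact 95% interval of the counts 2.32 to 40.3, counting error only). The edgeR adjusted p was 0.0221, and without GFP replicate 1, OSK replicate 1 or OSK replicate 2 it was 0.118, 0.0861 and 0.0941. Against GSTA4 the ratio to OSK was 14.8 (interval 4.75 to 74.6).

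Membrane semaphorins mostly fell in OSK against GFP. Of 12 tested, 8 fell and 3 rose (SEMA4B, SEMA4D and SEMA6D), where 22.8% of all tested genes fell and 23.1% rose. GSTA4 against GFP had 2 rises and 2 falls, where 14.7% of all tested genes rose and 14.6% fell. SEMA6D, a ligand of A-type plexins, had 1.62, 1.62 and 0.826 CPM in WT, 1.9, 0.86 and 1.16 in GFP, 3.69, 4.28 and 3.17 in GSTA4 and 6.26, 6.77 and 7.39 in OSK. All GSTA4 libraries lay above WT and GFP, and all OSK libraries above GSTA4. Relative to GFP it rose by 2.39 in OSK (SE 0.289, adjusted p 8.64e-07) and by 1.51 in GSTA4 (SE 0.302, adjusted p 0.000715). SEMA4A, made by the RPE and needed by mouse photoreceptors, had 6.41, 7.27 and 8.44 CPM in WT, 12.9, 17.5 and 14.3 in GFP, 18.2, 22.4 and 21.5 in GSTA4 and 4.84, 5.25 and 7.18 in OSK. OSK overlapped WT, and GFP and GSTA4 stood above both. SEMA4A rose in GFP against WT by 1.01 (SE 0.16, adjusted p 0.000141) and fell in OSK against GFP by 1.37 (SE 0.166, adjusted p 8.64e-07). Against WT, its log2 fold change in OSK was -0.36 and was not called (SE 0.175, adjusted p 0.102). The rise in GSTA4 against GFP of 0.47 (SE 0.147, adjusted p 0.0199) was not called without GFP replicate 1 or 3 or GSTA4 replicate 2 or 3.

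SEMA4D, a ligand of B-type plexins, had 31, 26.7 and 25.3 CPM in WT, 25.9, 22.4 and 25 in GFP, 18.9, 20.7 and 21 in GSTA4 and 43.9, 39.6 and 39 in OSK. OSK was the highest group and GSTA4 the lowest, without overlap. Against GFP, SEMA4D rose by 0.74 in OSK (SE 0.0948, adjusted p 1.9e-06), and its fall of 0.28 in GSTA4 (SE 0.0996, adjusted p 0.0424) was lost when any of 7 libraries was left out (WT replicate 2, GFP replicates 1 and 3, each GSTA4 library and OSK replicate 2). SEMA5B had 0.747, 2.2 and 2.6 CPM in WT, 6.08, 2.87 and 4.01 in GFP, 1.97, 2.1 and 2.75 in GSTA4 and 0.711, 0.38 and 1.27 in OSK. Its fall of 2.46 in OSK against GFP (SE 0.442, adjusted p 0.000116) was clear of the GFP range. Its rise of 1.22 in GFP against WT (adjusted p 0.0293) was not called without WT replicate 1 (0.83, adjusted p 0.109), GFP replicate 1 (0.90, adjusted p 0.156) or GFP replicate 3 (1.27, adjusted p 0.0527). SEMA7A, a lipid-anchored semaphorin that binds PLXNC1, had 3.3, 4.63 and 4.43 CPM in WT, 4.64, 3.66 and 6.18 in GFP, 4.64, 3.98 and 3.23 in GSTA4 and 2.28, 2.66 and 1.06 in OSK. OSK lay below every other library, and the log2 fold change against GFP was -1.26 (SE 0.294, adjusted p 0.0014). SEMA4G had 12, 9.69 and 9.62 CPM in WT, 9.35, 9.18 and 9.24 in GFP, 13.5, 11.1 and 11.4 in GSTA4 and 4.34, 5.57 and 6.4 in OSK, a fall of 0.77 in OSK against GFP (SE 0.163, adjusted p 0.000637). Its exons overlap those of MRPL43 and AL133215.1 on the other strand, over 1441 bases summed over both. With the counting strand not given in the sources used here, reads of these genes cannot be told apart. SEMA6C also fell in OSK, from 17.8 CPM ± 0.853 in GFP to 9.11 ± 2 (log2 fold change -0.97, adjusted p 2.86e-06), and so did SEMA4C (-0.36). SEMA5A had 253.8 CPM ± 20.6 in GFP and 156.7 ± 5.89 in OSK (-0.70, adjusted p 1.14e-08), but WT was at 156.8 CPM, so OSK differed from the GFP line and not detectably from WT (log2 fold change 0.00, adjusted p 0.995). SEMA5A rose in GFP against WT by 0.70 (adjusted p 1.87e-07), and its fall of 0.19 in GSTA4 against GFP became a rise of 0.50 against WT. The fall of SEMA4F (-0.25) was lost under 8 alternatives, among them DESeq2, WT as the control and each omission of GFP replicate 2 or 3 or an OSK library.

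**Figure D2:**
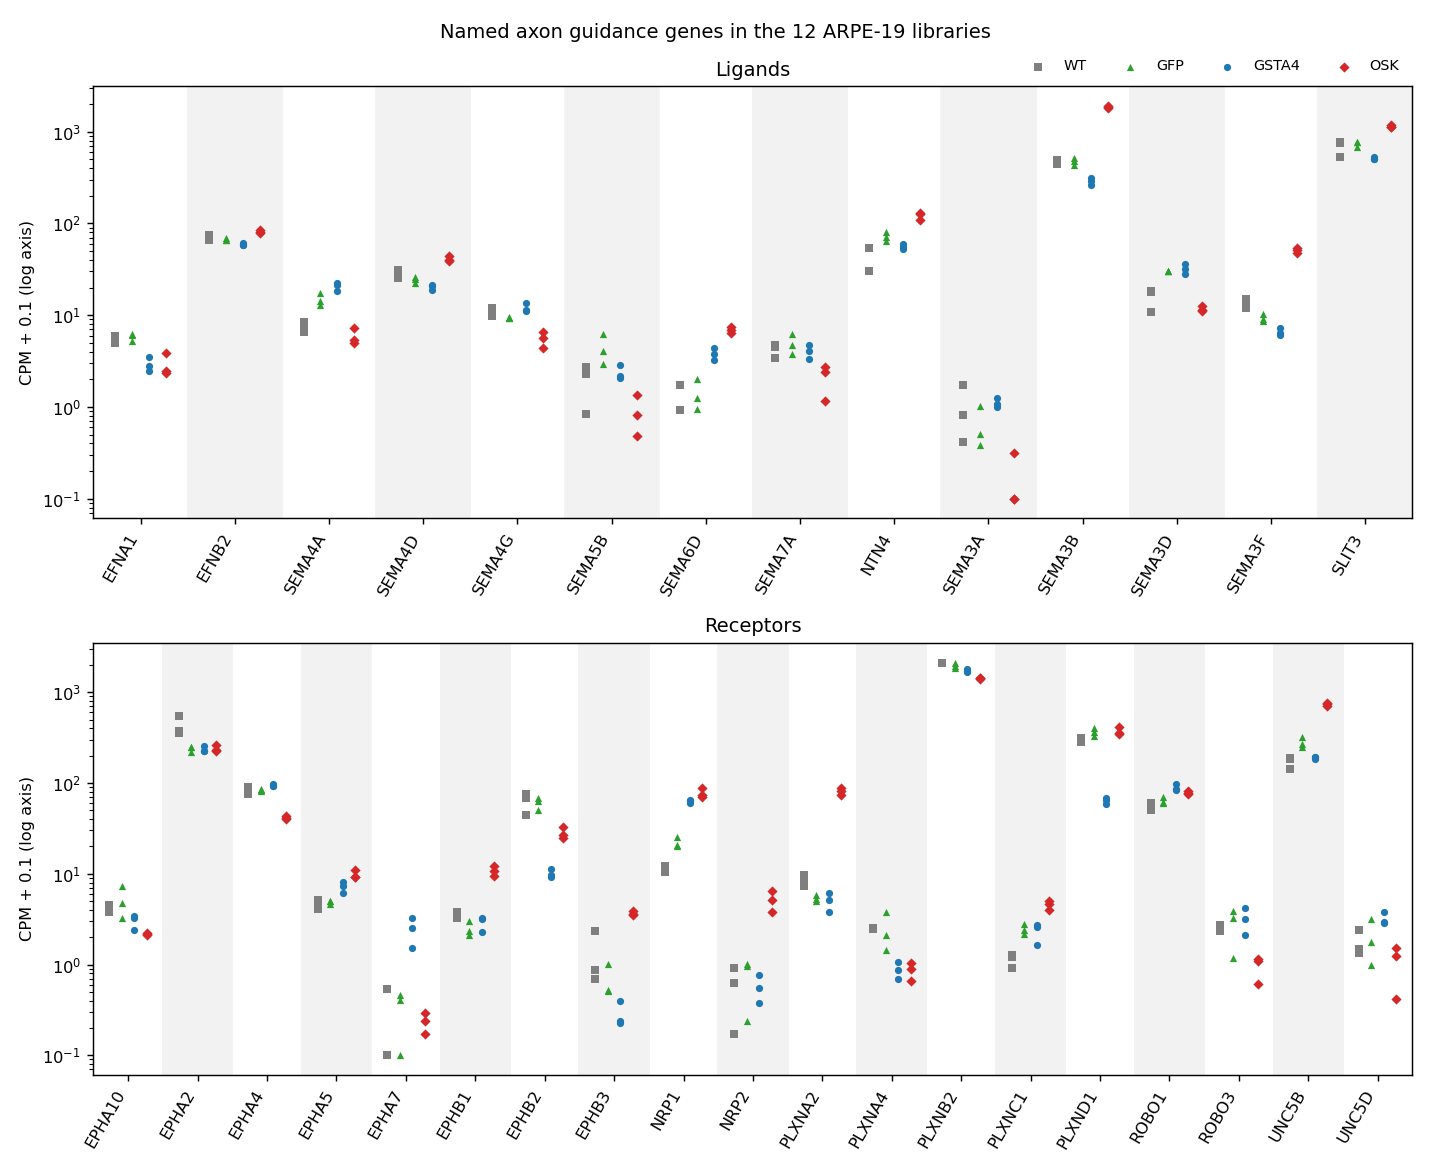
CPM + 0.1 on a log axis (y) in each of the 12 libraries for the 33 members named by the rule (x), ligands above and receptors below, with a point per library. SEMA3B, SEMA3F, NRP2, PLXNA2, EPHB1, EPHB3 and UNC5B have their 3 OSK libraries above all others. So do NRP1, NTN4, SLIT3, SEMA4D, SEMA6D, EFNB2, EPHA5 and PLXNC1. PLXND1 has its 3 GSTA4 libraries, at 59.1 to 68.3 CPM, below all others, as do EPHB2, EPHB3, SEMA3B, SEMA3F, SEMA4D and EFNB2.

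Ephrins changed by less. EFNA1, a ligand of EPHA2, had 4.92, 5.36 and 5.84 CPM in WT, 5.93, 5.16 and 6.18 in GFP, 3.43, 2.7 and 2.34 in GSTA4 and 2.35, 2.22 and 3.73 in OSK. Both ORF lines lay below all control libraries and overlapped each other. Against GFP, EFNA1 changed by -1.02 in GSTA4 (SE 0.228, adjusted p 0.00192) and by -1.06 in OSK (SE 0.229, adjusted p 0.000728). EFNB2, the ephrin with the most reads and a marker of arteries in vessels, had 65.6, 74.5 and 72.6 CPM in WT, 65.6, 66.5 and 68.7 in GFP, 58.5, 58.4 and 60.4 in GSTA4 and 80.7, 79.3 and 85.3 in OSK. Its rise in OSK was 0.29 (SE 0.0653, adjusted p 0.00113), and its fall of 0.18 in GSTA4 (SE 0.0663, adjusted p 0.0469) was lost when any of 9 libraries was left out, all but WT replicate 1 and OSK replicates 1 and 3. EFNB2 exons overlap a noncoding gene on the other strand over 1313 bases. Of the other B ephrins, EFNB1 rose in OSK from 6.08 CPM ± 0.709 to 8.89 ± 0.803 (log2 fold change 0.55, adjusted p 0.00826), and against WT its value of 0.36 was not called (adjusted p 0.0692). EFNB3 fell in both lines, from 30.8 CPM ± 1.95 to 25.3 ± 1.44 in GSTA4 and 19.1 ± 0.926 in OSK, and the call in GSTA4 was lost without GFP replicate 2 or 3 or GSTA4 replicate 2 or 3. EFNA4 and EFNA5 were not called in any of the 4 contrasts.

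Netrins and slits were led by NTN4 and SLIT3. NTN4, a basement membrane netrin related to laminins, had 30.2, 53.9 and 53.6 CPM in WT, 64.5, 71.8 and 80.6 in GFP, 52.9, 58.9 and 55.7 in GSTA4 and 109.4, 128.3 and 127.8 in OSK. OSK exceeded every other library, and WT replicate 1 was the lowest. Its window above holds 3 CACCC-box matches, the most of the 6 shown. Among all 58 windows the most were 6, in SEMA4G, which fell in OSK. The rise in OSK against GFP was 0.75 (SE 0.137, adjusted p 0.000134). The step from WT to GFP was 0.66 (SE 0.143, adjusted p 0.00249), or 0.42 without WT replicate 1 (adjusted p 0.000793). GSTA4 against GFP gave -0.37, which was not called (SE 0.141, adjusted p 0.0524) and was called under 10 alternatives. NTN1, NTN3 and NTN5 lay at 0.294 to 1.29 CPM on average and were not called anywhere. SLIT3, the slit with the most reads, had 527, 780 and 756 CPM in WT, 680, 773 and 778 in GFP, 501, 509 and 532 in GSTA4 and 1137, 1126 and 1191 in OSK. GSTA4 lay below GFP and reached WT replicate 1 alone, and OSK lay above all. SLIT3 rose in OSK against GFP by 0.63 (SE 0.0998, adjusted p 2.7e-05) and fell in GSTA4 against GFP by 0.53 (SE 0.1, adjusted p 0.000384). SLIT2 fell in both lines, from 44.5 CPM ± 0.36 in GFP to 34.3 ± 2.63 in GSTA4 (-0.37, adjusted p 0.00264) and 38 ± 2.7 in OSK (-0.22, adjusted p 0.0374), where WT had 60.4 CPM. The OSK call against GFP was lost with DESeq2, with no filter and without any single GFP library, OSK replicate 1 or OSK replicate 3.

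Both neuropilins rose in OSK. NRP1, a co-receptor for semaphorins and for VEGF, had 11.9, 10.4 and 11.3 CPM in WT, 25.6, 20.4 and 20 in GFP, 60.2, 65.2 and 63.1 in GSTA4 and 70.4, 73.6 and 88.2 in OSK. The 4 groups did not overlap and stepped up in that order. NRP1 was 0.97 higher in GFP than in WT (SE 0.115, adjusted p 6.9e-06), 1.52 higher in GSTA4 than in GFP (SE 0.101, adjusted p 3.25e-10) and 1.82 higher in OSK than in GFP (SE 0.1, adjusted p 7.18e-12). The difference between OSK and GSTA4 was 0.30 (SE 0.0923, adjusted p 0.0104) and was not called without OSK replicate 3 (0.21, adjusted p 0.0862) or with library size alone (0.24, adjusted p 0.0523). NRP2, the co-receptor that SEMA3F prefers, had 13, 1 and 9 reads in WT, 12, 12 and 2 in GFP, 7, 9 and 4 in GSTA4 and 52, 79 and 90 in OSK. These OSK counts are 3.7, 5 and 6.33 CPM, and no library of another group reached 1 CPM. Its log2 fold change in OSK against GFP was 2.98 (SE 0.493, adjusted p 4.45e-05). NRP1 and NRP2 exons overlap noncoding genes on the other strand over 561 and 147 bases.

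Plexins moved in both directions, and the most changed member differed between the ORF lines. PLXNA2, which takes part in class A plexin signalling with neuropilins, had 9.64, 8.15 and 7.26 CPM in WT, 5.7, 5.23 and 4.89 in GFP, 5.97, 3.68 and 5.09 in GSTA4 and 88.9, 82.4 and 73.8 in OSK. Each OSK library was more than 7 times as high as any other library. PLXNA2 rose by 3.95 in OSK against GFP (SE 0.135, adjusted p 2.89e-15), the largest change of a tested member in any contrast with GFP, and was 0.66 lower in GFP than in WT (log2 fold change -0.66, SE 0.158, adjusted p 0.00494). Its upstream window is the first printed above, with a single CACCC-box match. PLXND1 (chr3:129555175-129606818, minus strand, GENCODE 29), the receptor of SEMA3E with a major role in vessel patterning, had 281, 310 and 305 CPM in WT, 333, 364 and 404 in GFP, 65.3, 59.1 and 68.3 in GSTA4 and 342, 410 and 354 in OSK. GSTA4 stood far below the other groups, and OSK overlapped GFP. PLXND1 fell by 2.51 in GSTA4 against GFP (SE 0.0849, adjusted p 1.11e-14), and its value in OSK against GFP was 0.01 (SE 0.0779, adjusted p 0.944). The difference between OSK and GSTA4 was itself called, at 2.52 (SE 0.0849, adjusted p 1.51e-15). Of 8 endothelial markers 2 were tested, and most of their sum was the VEGF receptor KDR, whose mean was 79.2 CPM ± 12.4 (WT), 62 ± 5.43 (GFP), 37.2 ± 1.31 (GSTA4) and 23.4 ± 1.45 (OSK). The part of these markers in the result on PLXND1 was not tested.

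PLXNB2, a receptor for membrane semaphorins, had the most reads of the plexins, with 2083, 2107 and 2097 CPM in WT, 1831, 1961 and 2118 in GFP, 1781, 1688 and 1708 in GSTA4 and 1420, 1447 and 1407 in OSK. It fell in OSK against GFP by 0.47 (SE 0.0603, adjusted p 2.02e-06), and its fall of 0.19 in GSTA4 (SE 0.0602, adjusted p 0.0212) was not called without GFP replicate 3, GSTA4 replicate 2 or GSTA4 replicate 3. PLXNA4, a semaphorin receptor of the nervous system, had 2.43, 2.42 and 2.36 CPM in WT, 3.73, 1.36 and 2.04 in GFP, 0.763, 0.6 and 0.963 in GSTA4 and 0.783, 0.95 and 0.563 in OSK. Both ORF lines lay under every control library. Its log2 fold changes were -1.59 in GSTA4 (SE 0.398, adjusted p 0.00464) and -1.61 in OSK (SE 0.398, adjusted p 0.00235) against GFP. PLXNC1, the receptor of SEMA7A, rose in OSK against GFP by 0.90 (SE 0.266, adjusted p 0.00859), from 2.05, 2.72 and 2.31 CPM to 3.84, 4.94 and 4.5, and in GFP against WT (1.12, 0.808 and 1.18 CPM) by 1.17 (SE 0.309, adjusted p 0.00993). GSTA4, at 1.53, 2.63 and 2.48 CPM, overlapped GFP. PLXNA3 was called in opposite directions, with 55.2 CPM ± 4.93 in GFP, 77.4 ± 3.34 in GSTA4 (0.49, adjusted p 4.51e-05) and 39.9 ± 3 in OSK (-0.47, adjusted p 4.77e-05), while WT had 76.5 ± 1.68. Against WT, PLXNA3 in GSTA4 gave 0.02 and was not called (adjusted p 0.884). PLXNB1 rose in OSK against GFP by 0.52, PLXNA1 fell by 0.21 (not called without GFP replicate 3 or OSK replicate 2 or 3), and PLXNB3 was called in no contrast.

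**Figure D3:**
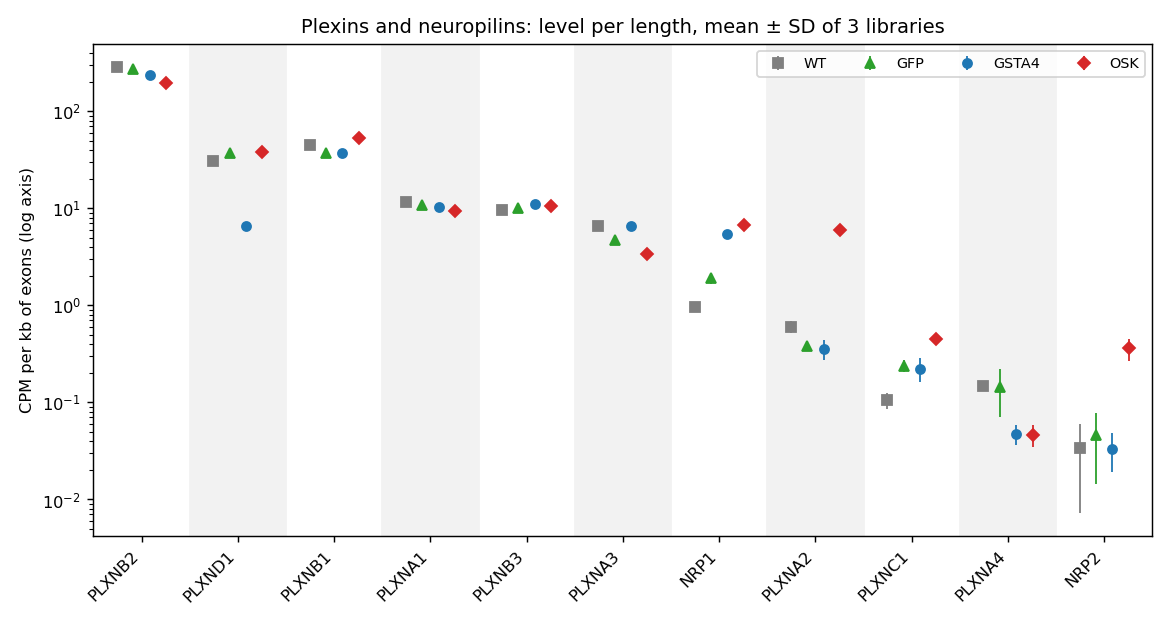
CPM per kilobase of exons (log axis, y) of 9 plexins and 2 neuropilins (x) as the mean ± SD of 3 libraries per group. PLXNB2 is the highest in every group, and PLXND1 lies at 30.7, 37.7 and 37.9 in WT, GFP and OSK against 6.59 in GSTA4.

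Levels of different genes were compared per kilobase of exons in GENCODE 29. On that scale PLXNB2 led the members at 289 in WT, 271 in GFP and 238 in GSTA4, and EPHA2 and SEMA3B came next in each group, at 49.8 to 102.3. In OSK SEMA3B came first at 321.5 CPM per kilobase, then PLXNB2 at 196, UNC5B at 107.9 and SLIT3 at 80.7. SEMA3B had 81.8, 83.1 and 49.8 CPM per kilobase in WT, GFP and GSTA4, so its place above PLXNB2 was seen in OSK alone. Lengths follow annotated transcripts, not those used by these cells.

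EPH receptors of class A gave few large changes, and the largest was in GSTA4. EPHA7, which helps to map retinal axons, had 7, 0 and 0 reads in WT, 4, 5 and 0 in GFP, 49, 19 and 35 in GSTA4 and 1, 3 and 2 in OSK. The GSTA4 libraries, at 3.11, 1.43 and 2.41 CPM, lay above all others, which reached at most 0.436 CPM. The log2 fold change in GSTA4 against GFP was 3.38 (SE 0.723, adjusted p 0.00131), or 2.77 without GFP replicate 3 (adjusted p 0.00941). Its window above holds no CACCC, octamer or SOX core. EPHA4, a repulsive receptor for both ephrin classes, had 75.8, 90.2 and 89.1 CPM in WT, 84.3, 82 and 86.2 in GFP, 93.2, 92 and 98 in GSTA4 and 43.3, 40.3 and 40.8 in OSK, a fall of 1.02 in OSK against GFP (SE 0.0726, adjusted p 3.5e-10). EPHA5, a partner of A-type ephrins in the retina and brain, had 4.42, 4.04 and 5.02 CPM in WT, 4.94, 4.52 and 4.96 in GFP, 7.24, 8.11 and 6.05 in GSTA4 and 10.8, 9.12 and 9.15 in OSK. It rose in OSK by 1.01 (SE 0.168, adjusted p 4.84e-05) and in GSTA4 by 0.57 (SE 0.172, adjusted p 0.017), a call lost without GFP replicate 2 (adjusted p 0.0604) or GSTA4 replicate 2 (adjusted p 0.0796).

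EPHA2, the EPH receptor with the most reads and a common receptor of epithelia, had 540.5, 358 and 377.5 CPM in WT, 248, 220.5 and 246 in GFP, 252, 224 and 225 in GSTA4 and 264.5, 228 and 223 in OSK. GFP, GSTA4 and OSK overlapped, and WT lay above all of them, with WT replicate 1 the highest. From WT to GFP it changed by -0.84 (SE 0.111, adjusted p 2.32e-05), or -0.63 without WT replicate 1 (adjusted p 9.74e-08), while OSK against GFP gave 0.00 (SE 0.111, adjusted p 0.983). EPHA10, an EPH receptor without an active kinase, had 4.42, 4.41 and 3.66 CPM in WT, 7.15, 4.66 and 3.19 in GFP, 2.29, 3.3 and 3.17 in GSTA4 and 1.99, 2.09 and 2.11 in OSK. It fell in OSK by 1.27 (SE 0.276, adjusted p 0.000817). Its fall of 0.77 in GSTA4 (SE 0.266, adjusted p 0.0332), where the groups overlapped, was 0.43 without GFP replicate 1, not called (adjusted p 0.264), and was also not called without GFP replicate 2, GSTA4 replicate 1 or GSTA4 replicate 3.

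Among class B receptors EPHB2 fell in both lines and EPHB1 and EPHB3 rose in OSK. EPHB2, a receptor for ephrin-B ligands that also sorts epithelial cells, had 44.4, 68.4 and 74.5 CPM in WT, 50.6, 63.4 and 67.9 in GFP, 9.15, 11.1 and 9.63 in GSTA4 and 33, 26.4 and 24.9 in OSK. GSTA4 was lowest and OSK lay between it and the controls, without overlap. EPHB2 fell by 2.61 in GSTA4 (SE 0.171, adjusted p 2.65e-10) and by 1.11 in OSK (SE 0.152, adjusted p 4.47e-06) against GFP, and OSK and GSTA4 differed from each other (adjusted p 5.24e-07). Its window above holds a single CACCC-box match. EPHB1, which directs the uncrossed retinal axons at the optic chiasm, had 3.42, 3.16 and 3.66 CPM in WT, 2.89, 2.01 and 2.24 in GFP, 3.11, 3.08 and 2.2 in GSTA4 and 12.1, 10.7 and 9.29 in OSK, a rise of 2.17 (SE 0.207, adjusted p 3.06e-08). The RefSeq start used for its window lies inside the longer gene that GENCODE 29 gives at chr3:134597801-135260467. EPHB3, which shares ligands with EPHB2, had 36, 8 and 13 reads in WT, 12, 6 and 6 in GFP, 2, 4 and 2 in GSTA4 and 48, 55 and 54 in OSK. Its OSK libraries, at 3.42, 3.48 and 3.8 CPM, exceeded WT replicate 1, the next highest at 2.24. EPHB3 rose in OSK against GFP by 2.61 (SE 0.47, adjusted p 0.000118), while GSTA4 against GFP gave -1.60 and was not called (SE 0.693, adjusted p 0.0897). Exons of EPHA5, EPHA4, PLXNC1, SEMA5A and SLIT3 also overlap genes on the other strand, over 535, 353, 399, 436 and 663 bases, and those of EPHB1, EPHB2 and PLXNA3 over 64, 34 and 11. EPHB4, a receptor for EFNB2, fell from 104.9 CPM ± 1.45 in WT to 82.7 ± 5.72 in GFP and 67.6 ± 3.33 in OSK, by 0.34 from WT to GFP and by 0.29 from GFP to OSK (adjusted p 0.000938 and 0.00134).

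Among the ROBO receptors tested, ROBO1 changed little and ROBO3 fell in OSK. ROBO1, the ROBO with the most reads, had 60.7, 50.5 and 56.1 CPM in WT, 61.5, 60.1 and 69.8 in GFP, 96.1, 82.7 and 84.8 in GSTA4 and 80.7, 77.2 and 76.3 in OSK. Both ORF lines lay above GFP, by 0.46 in GSTA4 (SE 0.0795, adjusted p 0.000155) and 0.29 in OSK (SE 0.0798, adjusted p 0.00543). ROBO3, a divergent member that lets axons cross the midline, had 2.24, 2.57 and 2.66 CPM in WT, 3.8, 3.15 and 1.09 in GFP, 4.07, 2.03 and 3.1 in GSTA4 and 0.996, 0.506 and 1.06 in OSK. OSK was below every library, if closely below GFP replicate 3, and the log2 fold change against GFP was -1.65 (SE 0.429, adjusted p 0.00359).

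UNC5B, a netrin receptor of vessels and axons, was the UNC5 gene with the most reads and rose in OSK. It had 142.5, 183 and 186 CPM in WT, 248, 266 and 322 in GFP, 184, 192 and 191 in GSTA4 and 740, 765 and 710 in OSK. Each OSK library was more than 2 times as high as any library of another group, and GSTA4 lay between WT and GFP, overlapping WT. UNC5B rose by 1.41 in OSK (SE 0.0919, adjusted p 9.25e-11) and fell by 0.56 in GSTA4 (SE 0.092, adjusted p 9.38e-05) against GFP, and was 0.71 higher in GFP than in WT (SE 0.0922, adjusted p 1.81e-05). Against WT, GSTA4 had 0.15 and was not called (SE 0.0925, adjusted p 0.218), so the fall in GSTA4 was seen against the GFP line alone. UNC5D had 1.24, 1.4 and 2.3 CPM in WT, 3.04, 1.65 and 0.883 in GFP, 2.73, 3.68 and 2.82 in GSTA4 and 1.42, 0.317 and 1.13 in OSK. It was called in OSK against GSTA4 (-1.70, SE 0.453, adjusted p 0.00393) and not in either contrast with GFP.

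UNC5B-AS1 lies inside UNC5B on the other strand, at chr10:71217224-71218228 within chr10:71212570-71302864 (GENCODE 29, GRCh38), and shares no annotated exon base with it. Its start is 5658 bases from that of UNC5B. It had 10, 18 and 20 reads in WT, 29, 28 and 32 in GFP, 10, 16 and 10 in GSTA4 and 6711, 8122 and 6212 in OSK. The OSK libraries were at 437 to 514 CPM and all other libraries at 0.622 to 2.21. UNC5B-AS1 rose by 7.80 in OSK (SE 0.121, adjusted p 4.9e-21) and fell by 1.36 in GSTA4 (SE 0.275, adjusted p 0.000797) against GFP, and was 1.04 higher in GFP than in WT (SE 0.257, adjusted p 0.00637). Its window above has 2 CACCC-box matches and 1 SOX core. These are the directions that UNC5B took in the same contrasts, with a larger change in each. The rise of UNC5B-AS1 in GFP was not called without WT replicate 1 (0.77, adjusted p 0.0528), and against WT the GSTA4 value was -0.31 (adjusted p 0.465). Without a stated counting strand, reads of unspliced UNC5B there cannot be told apart from reads of UNC5B-AS1.

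**Figure D4:**
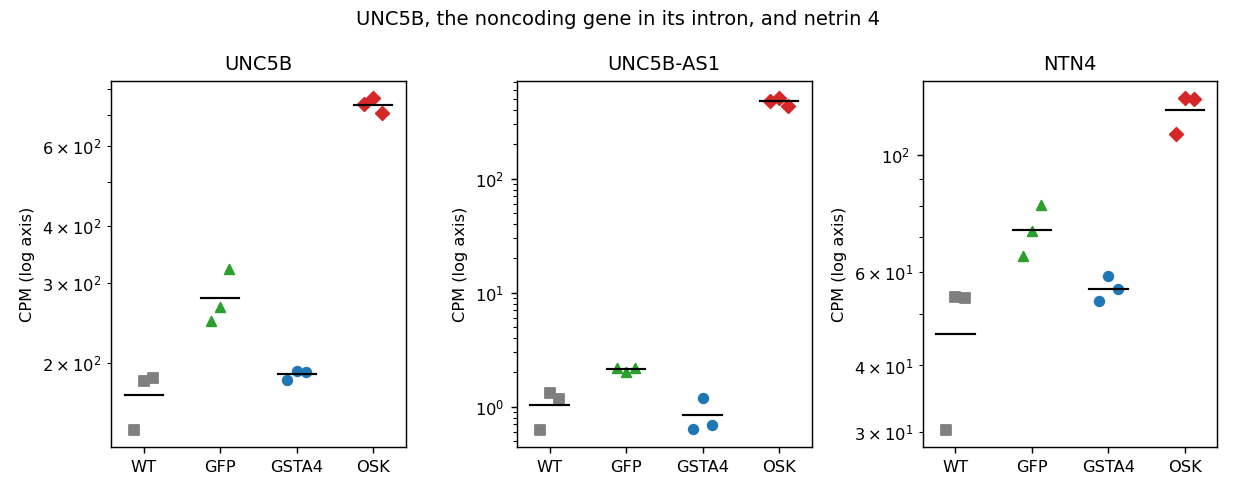
CPM on log axes (y) of UNC5B, the noncoding UNC5B-AS1 inside it and NTN4 in the 3 libraries of each group (x), with a bar at the group mean; each panel has its own range. The mean of UNC5B is 738 CPM in OSK against 170 to 279 elsewhere, and that of UNC5B-AS1 is 476 against 0.841 to 2.13.

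Of 13 noncoding genes named after members, UNC5B-AS1 and SLIT3-AS1 had the largest called changes in the ORF contrasts. SLIT3-AS1 had 1.18, 1.47 and 1.71 CPM in WT, 6.39, 5.09 and 1.49 in GFP, 0.635, 1.35 and 0.757 in GSTA4 and 0.498, 1.58 and 1.34 in OSK, and fell by 2.24 in GSTA4 (SE 0.474, adjusted p 0.00117) and by 1.90 in OSK (SE 0.457, adjusted p 0.00191), with OSK and GFP replicate 3 overlapping. GFP itself was 1.56 above WT (adjusted p 0.0151), and against WT neither GSTA4 (-0.69, adjusted p 0.317) nor OSK (-0.34, adjusted p 0.614) was called. SLIT3-AS2 fell in GSTA4 by 1.45 (SE 0.46, adjusted p 0.0224), a call lost without GFP replicate 1 or 2, without any GSTA4 library and against WT, and SEMA3F-AS1, which overlaps SEMA3F exons over 110 bases, rose in OSK by 0.94 (SE 0.361, adjusted p 0.039), a call lost under 7 alternatives, among them GFP replicates 2 or 3 or OSK replicates 1 or 2 left out. SEMA3B-AS1, whose start is 187 bases from that of SEMA3B, was at 1.37 CPM ± 0.328 in GFP and 1.69 ± 0.378 in OSK and was not called (log2 fold change 0.31, SE 0.369, adjusted p 0.526). SEMA6A-AS1 was not called either, and the other 7 were not tested, with group means of at most 0.78 CPM.

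Other genes of these pathways were read from a list of 91 receptors, co-receptors, sheddases and intracellular effectors, of which 79 were tested. In OSK against GFP 18 were higher and 33 lower, which is 64.6% called beside 45.9% of all tested genes. In GSTA4 against GFP 10 were higher and 24 lower (43% beside 29.2%). In GFP against WT 16 were higher and 11 lower (34.2% beside 22.2%), and in OSK against GSTA4 23 higher and 27 lower (63.3% beside 47.8%). Without GFP replicate 2 the GFP against WT count dropped from 27 to 17, and the share of all tested genes called dropped from 22.2% to 14.5%. NGEF, a guanine nucleotide exchange factor that acts downstream of EPHA receptors, had 0.304, 0.287 and 0.815 CPM in GFP and 16.4, 13.6 and 17.7 in OSK, a rise of 5.03 (SE 0.323, adjusted p 7e-11). NRCAM, an adhesion molecule that pairs with neuropilins, had 0.38, 0.0717 and 0 CPM in GFP and 4.77, 3.86 and 3.94 in OSK, a rise of 4.78 (SE 0.56, adjusted p 5.59e-07) on 6 GFP reads. DRAXIN, a secreted netrin antagonist, had 0 reads in WT and GSTA4, 10, 1 and 2 in GFP and 29, 22 and 26 in OSK, and rose in OSK against GFP by 2.45 (SE 0.63, adjusted p 0.00437), or by 3.97 without GFP replicate 1 (adjusted p 0.000519). It was at least 8.5-fold higher in OSK than in GSTA4 and at least 9.05-fold higher than in WT by the floor of 3 reads per library.

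In GSTA4 against GFP the call of DRAXIN was lost without GFP replicate 1 (adjusted p 0.122) or any GSTA4 library (adjusted p 0.0502 to 0.0557). DRAXIN aside, the largest falls of the list in that contrast were those of ABLIM1 and PDZRN3. ABLIM1, an actin-binding protein of netrin pathways, had 334, 525 and 516 CPM in WT, 623.5, 631 and 668 in GFP, 133, 131 and 135 in GSTA4 and 234, 210.2 and 224 in OSK. Its fall was 2.27 in GSTA4 against GFP (SE 0.114, adjusted p 4.6e-12). PDZRN3, a ubiquitin ligase, had 50.6, 67.1 and 72.5 CPM in WT, 34.5, 38.8 and 42.4 in GFP and 11.4, 7.28 and 5.99 in GSTA4 (log2 fold change -2.22, SE 0.171, adjusted p 3.08e-09). In GFP against WT DRAXIN was called higher on 13 GFP reads and 0 WT reads (adjusted p 0.0217). That call was lost without GFP replicate 1 (adjusted p 0.123) or WT replicate 3 (adjusted p 0.0507). In the same contrast the chemokine receptor CXCR4 fell by 1.39 (SE 0.212, adjusted p 9.83e-05). The syndecan SDC1 rose by 1.14 (SE 0.315, adjusted p 0.0134), a call lost without WT replicate 1 (0.83, adjusted p 0.0682) or GFP replicate 2 (1.06, adjusted p 0.0519). DCC, the classical netrin receptor, had at most 0.76 CPM in a library, and its relative neogenin (NEO1) lay at 143 to 228 CPM in all 12. Fibroblast markers summed to 766 to 787 CPM in WT, 709 to 776 in GFP, 529 to 558 in GSTA4 and 338 to 397 in OSK, mostly PDGFRB and COL1A1, with LUM at 0, and pluripotency markers summed to at most 4.79 CPM, with 1 of 8 tested. Their part in the results on members was not tested.

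SEMA3E, SEMA3G, SEMA6B, EFNA2, EFNA3, SLIT1, EPHA6, EPHA8, ROBO2, ROBO4, UNC5A and UNC5C did not pass the filter on low counts, with at most 24 reads in a library and a group mean of at most 0.759 CPM, and no difference between groups was tested for them in the fit used above. Without a filter, edgeR called SLIT1 in GSTA4 against GFP (log2 fold change -3.67, adjusted p 0.0325) and in GFP against WT (3.70, adjusted p 0.0371), and UNC5A in GFP against WT (4.05, adjusted p 0.0411). Of the GFP reads of these genes, 24, 2 and 2 for SLIT1 and 17, 0 and 3 for UNC5A, most were in GFP replicate 1. EPHA6 had 7, 7 and 19 reads in OSK and at most 6 in any other library, and its adjusted p without a filter was 0.181 against GFP and 0.062 against GSTA4. SEMA3E, the ligand of PLXND1, was among them, at group means of 0.16 to 0.627 CPM. The 10 tested members called in none of the 4 contrasts were EFNA4, EFNA5, EPHA1, EPHA3, EPHB6, NTN1, NTN3, NTN5, PLXNB3 and SEMA6A. The F test over the 4 groups called EFNA5 (adjusted p 0.00411) and EFNA4 (adjusted p 0.0319). Against WT, EFNA5 was higher in GSTA4 (log2 fold change 0.65, adjusted p 0.00121) and OSK (0.45, adjusted p 0.0136), and EFNA4 was lower in both (-0.55, adjusted p 0.0221, and -0.54, adjusted p 0.0218).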

How the data were processed

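Poly(A) RNA of 12 ARPE-19 libraries (4 groups of 3, taken from the labels) was read from the deposited table of raw counts per gene. The submitters' processing notes name STAR 2.7.1a, featureCounts 1.6.2 and the builds GRCh38 and GRCm38, with no role or order. The annotation release and the strand setting behind these counts are not given in the sources used here. Lines with a blank gene name held 0.485 to 0.822% of reads and were left out.

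The members, the pathway list, the cell type markers and the rule for named genes were chosen with earlier results of these data known. Given with each library's value were members past the threshold with a log2 fold change of at least 1 in size in 1 of 4 contrasts and a mean of at least 1 CPM in a group, and the member with the most reads of each family. Up to 3 pathway genes per contrast were named by size of change, and all noncoding genes named after a member. The genes between SEMA3F and SEMA3B, KDR, DCC, NEO1 and the members given by mean and SD were chosen after their values were seen.

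Counts were fitted with edgeR 4.0.16 (limma 3.58.1, R 4.3.3): TMM scaling, filterByExpr with the groups (15179 genes tested), a quasi-likelihood fit over all 12 libraries (8 residual degrees of freedom, common biological variation 7.91%), prior count 0.125, two-sided tests and Benjamini-Hochberg adjustment over all tested genes of a contrast at 0.05. Counts were also simulated for OSK against GFP, with 200 changed genes among 15179. Of the changed genes that passed the filter in the simulated fit, 91.24% were recovered, with 10 false calls. The simulation gave every gene the same spread, gave WT, GFP and GSTA4 equal means and held no library that stood apart. It therefore does not measure the error rates in these data. The exact 95% intervals of count ratios and the floor of 3 reads cover counting error only. Gene models came from GENCODE 29 (GRCh38) and upstream windows from RefSeq (GRCh38.p14).

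The counts of calls, and the printed fold changes of the 4 contrasts that passed the threshold, were also computed with DESeq2 1.42.0, with other scalings (RLE, or library size alone), with other low-count filters (none, or a mean of 1 CPM), with a replicate block, from the 6 libraries of a contrast only, with WT in place of GFP, and without single libraries.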

Additional observations from a re-analysis of the deposited data

Results flagged for a closer look

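For 8 members the contrast with GFP was past the threshold in opposite directions in the 2 ORF lines, and the difference between the lines is given from OSK against GSTA4 in the same edgeR fit. Of these, 6 were higher in OSK than in GSTA4: SEMA3F by 2.96 (adjusted p 1.62e-14), SEMA3B by 2.69 (adjusted p 1.29e-16), UNC5B by 1.97 (adjusted p 4.11e-13), SLIT3 by 1.16 (adjusted p 5.17e-09), SEMA4D by 1.02 (adjusted p 2e-08) and EFNB2 by 0.47 (adjusted p 5.11e-06), all on the log2 scale. The other two were lower in OSK, SEMA4A with -1.85 (adjusted p 6.51e-09) and PLXNA3 with -0.96 (adjusted p 1.59e-09). Opposite calls against the same GFP libraries nearly fix a called difference between the lines, and the flag also required that call. The p-values of OSK against GSTA4 given here are therefore no separate support. The OSK and GSTA4 libraries did not overlap for any of the 8, which this selection also makes likely. The GSTA4 calls of EFNB2, SEMA4A and SEMA4D were lost without single libraries. With WT as the control, UNC5B in GSTA4 gave 0.15 and was not called (adjusted p 0.218), and PLXNA3 had 77.4 CPM in GSTA4 beside 76.5 in WT.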

How the results depend on the processing

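Alternatives were run for 171 log2 fold changes of members, pathway genes, noncoding genes and neighbours, 153 of them past the threshold. Of these 153, 113 kept direction and call under every alternative and 40 did not in at least 1 (31 with the WT-control alternative left aside). Over 3324 alternative values, 3121 kept direction and call, 136 lost the call, 50 gained it and 17 changed sign. A further 73 contrasts of these genes, called neither by the analysis reported nor by an alternative with the same control, are not in this tally, and 33 of them changed sign at least once. With WT as the control, GSTA4 gave 0.28 for NTN4, 0.30 for SEMA5B, 0.15 for UNC5B, 0.50 for SEMA5A and 0 for DRAXIN (no reads in either group), and OSK gave 0.35 for SLIT3-AS2 and -0.83 for EPHA2. The cause was not tested. In OSK against GFP, EPHA2 and PLXND1 lay near 0 and changed sign without passing the threshold. EPHA2 gave -0.070 with library size alone, -0.015 with a mean of 1 CPM, -8e-04 with the replicate block, -0.0046 from 6 libraries, and -0.067 to 0.055 with a library left out. PLXND1 gave -0.063 with library size alone, -0.0091 with a mean of 1 CPM, and -0.072 to 0.088 with a library left out. Leaving out each library in turn gave 46 to 48 members in the F test, 16 to 28 in GSTA4 against GFP, 39 to 43 in OSK against GFP, 15 to 19 in GFP against WT and 35 to 41 in OSK against GSTA4. For the pathway genes the ranges were 27 to 38, 46 to 55, 17 to 26 and 46 to 54, and the count of 17 (27 with all libraries) came without GFP replicate 2. Over the same omissions 61 to 65.4% of all tested genes were called in the F test. In the 4 contrasts, in that order, the shares were 22.1 to 32.4%, 39.6 to 48.5%, 14.5 to 21.1% and 41.2 to 49.5%. With the replicate number as a block the members counted 24, 42, 19 and 39, and 47 in the F test. Of all tested genes the block called 31.2, 47.9, 24.9 and 49.3%, and 68.3% in the F test. The labels do not say that a number pairs libraries, 3 of 18 same-numbered pairs correlated above 0.1 (range -0.019 to 0.153), and 6 of 12 libraries correlated best with their own number, so the block was read as a number only. With library size alone, OSK against GSTA4 had 19 members higher and 19 lower, beside 49% of all tested genes called, 42.5% of those calls higher. Per kilobase of the longest transcript, an alternative chosen after seeing the data, SEMA3B still led in OSK and PLXNB2 elsewhere, and SEMA3B moved from place 3 to 2 in WT and GSTA4. Members with a few reads per library, such as SEMA3A, EPHA7, EPHB3 and NRP2, carry the widest errors.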
